A study of Canis lupus familiaris with 12 samples.

Results

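Canine DUXC was compared directly with human DUX4 in a line of immortalized dog myoblasts, cells that fuse to form skeletal muscle fibres. The comparison took the 3 libraries of cells carrying DUXC and the 3 of cells carrying DUX4, that is 6 of the 12 libraries of the series. All cells carried a pCW57.1 lentiviral construct that expresses its insert under doxycycline, and both factor groups were labelled as treated with 1 ug/ml doxycycline for 24 h. The other groups are luciferase, the negative control insert, and DUXC-ALT, each with 3 libraries. They were used only to set a level beside both factors. The sample tag of the luciferase cells says that they had no doxycycline, whereas the protocol names it for every sample. The comparison of DUXC with DUX4 does not carry that difference. Whether replicates are separate cultures is not in the labels, and the spread behind each p-value may thus be technical. Polyadenylated RNA of whole cultures was sequenced, so fewer responding cells and less RNA per cell cannot be told apart. The amount of each factor made by the cells cannot be told apart from its activity either.

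The DUX family of placental mammals consists of transcription factors with paired homeodomains, and both DUX4 and DUXC belong to it. Human DUX4 is normally active in the early embryo, where it switches on genes and repeat elements of the cleavage stage, and is silent in adult muscle. Its return in muscle is the cause of facioscapulohumeral muscular dystrophy. DUXC is the related gene that dogs and some other mammals carry, and DUXC-ALT is an isoform of it. The homeodomains bind DNA, and the C-terminal end of DUX4 recruits coactivators.

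Gene counts came to 15839146, 18346979 and 15556477 in the DUX4 libraries and to 18573006, 18518493 and 16681574 in the DUXC libraries. Rows of the deposited tables, as used here, carry no gene or repeat names, so rows are cited by their number in the DUX4 table unless the DUXC table is named. No marker of muscle and no transcript of either insert could therefore be checked. The 2 tables were joined through the luciferase counts that they share. Rows with at least 7 luciferase reads stand in both in the same order, which gave 14736 joined gene rows and 654 joined repeat rows. Of the gene rows, 13106 had a combination of luciferase counts found nowhere else. No library was a copy of another, since chi-square per degree of freedom between replicates was 1.43 to 2.65 over gene rows, where sampling noise alone gives about 1. The biological coefficient of variation in edgeR was 2.60%, which lets differences well under 1.25-fold pass the test.

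Differences between the factors were many and mostly small. Of 13324 gene rows with enough reads to test, 4412 (33.1%) were higher with DUXC and 4398 (33%) higher with DUX4 at an edgeR adjusted p under 0.05. The quartiles of all log2 differences, DUXC minus DUX4, were -0.29 and 0.29, and the median was -0.00. Of the rows past the threshold, 3165 differed by less than 1.25-fold. The 95% interval of the difference lay within 1.5-fold in either direction for 7895 rows, or 59.2% of those tested. Those rows include 4399 that passed the test. Another 1018 rows did not pass it and had an interval that reached past 1.5-fold, so for them neither a difference nor its absence was shown. CPM of the 6 libraries did not overlap in 4452 rows higher with DUXC and 4643 higher with DUX4, together 68.3% of rows tested. Of these rows, 8393 also passed the test. With no difference, 3 against 3 libraries separate in this way with a probability of 0.1, so separation alone is weak evidence.

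Large differences went both ways, and more of them were higher with DUXC. In all, 851 rows were more than 2-fold higher with DUXC and 737 with DUX4. Beyond 4-fold the counts were 266 and 214, beyond 8-fold 102 and 69, and beyond 16-fold 33 and 22. A test against a difference of 2-fold, rather than against none, called 556 rows (4.17%) higher with DUXC and 430 (3.23%) higher with DUX4 (edgeR glmTreat, adjusted p under 0.05).

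**Figure D1:**
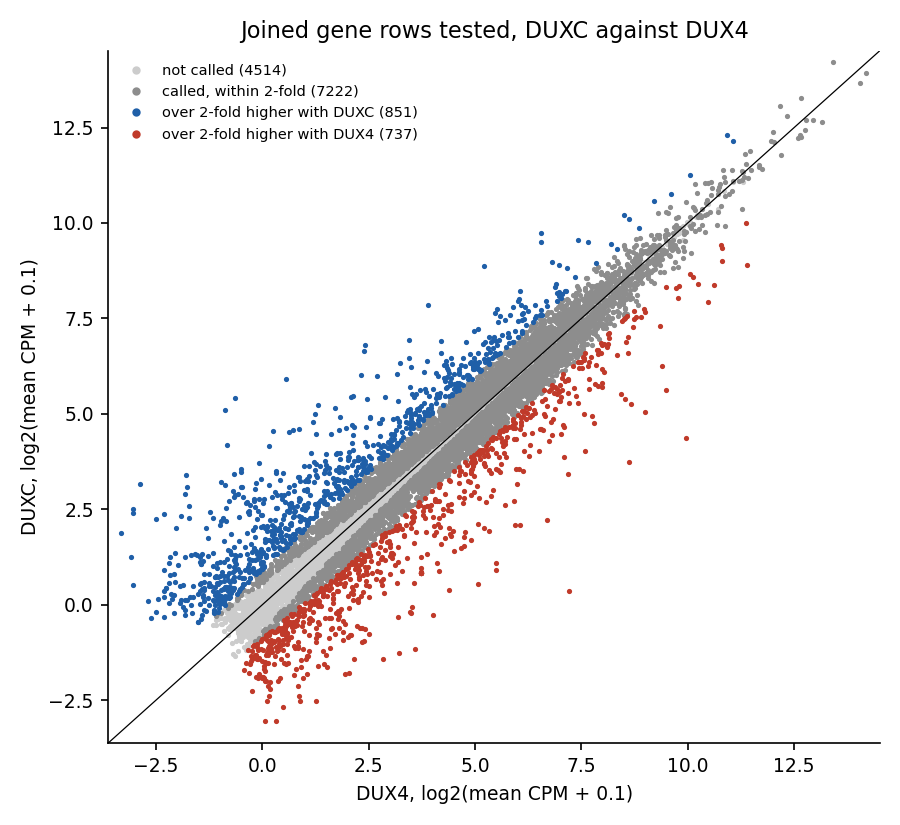
Mean CPM of each tested gene row with DUX4 (x axis) and with DUXC (y axis), each as log2(mean CPM + 0.1) over 3 libraries, with the line of equal levels. The 4514 rows not called lie along the line, and the 851 and 737 rows more than 2-fold higher with DUXC or DUX4 spread furthest from it at low levels.

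The largest differences in favour of DUXC were in gene rows almost silent with DUX4, and for most of them also with luciferase and DUXC-ALT. Gene row 7517 stood at 42.8, 46.1 and 39.0 CPM in the DUXC libraries and at 0.505, 0.600 and 0.514 CPM in the DUX4 libraries. All DUXC libraries lay far above all DUX4 libraries, and the luciferase and DUXC-ALT means were 0.122 and 0.124 CPM. DUXC minus DUX4 came to 6.28 ± 0.14 in log2 units (SE), with a 95% interval of 6.01 to 6.55 and an edgeR adjusted p of 7.65e-46. Gene row 3378 also stood far higher with DUXC, at 32.9, 37.3 and 32.7 CPM with DUXC and 0.695, 0.382 and 0.257 CPM with DUX4. Here the log2 difference was 6.26 ± 0.15 (SE), with an edgeR adjusted p of 4.39e-43, and the DUXC-ALT mean of 0.539 CPM was close to the DUX4 mean of 0.444 CPM. Gene row 10924 stood at 10.8, 11.3 and 9.17 CPM with DUXC. It had 2, 1 and 6 reads in the DUX4 libraries, a mean of 0.189 CPM beside 0.157 CPM with luciferase, and a log2 difference of 5.80 ± 0.26 (SE).

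Several of these rows had so few DUX4 reads that only a range can be given for the ratio. Gene row 347 had 58, 97 and 38 reads with DUXC and 0 in every DUX4 library. It was thus at least 59.5-fold higher with DUXC, taking 3 reads over the DUX4 group as the limit that a count of 0 allows. In gene row 346, DUXC gave 75, 125 and 79 reads and DUX4 gave 1, so that the ratio was 258.1 and its exact Poisson interval ran from 45.9 to 10230. In gene row 10490 the DUXC libraries held 159, 184 and 132 reads and the DUX4 group held 2, a ratio of 219.7 (60.5 to 1819). All DUXC libraries exceeded all DUX4 libraries in each of these rows, as the rule for naming rows required. DUXC-ALT had no read in rows 346 and 347 and 6 in row 10490. Luciferase reads were 3, 5 and 0 in row 346, 5, 4 and 0 in row 347 and 9, 1 and 4 in row 10490. Gene row 6298 had 122 DUXC reads to 1 DUX4 read, a ratio of 112.9 (19.9 to 4494). Gene row 1541 had 72 to 1, a ratio of 66.6 (11.6 to 2667). Its mean was 0.412 CPM with luciferase, against 1.33 CPM with DUXC and 0.0210 CPM with DUX4. Gene row 5716 had a mean of 4.60 ± 0.423 CPM with DUXC against 0.0756 ± 0.0825 CPM with DUX4 (SD, n = 3). The luciferase mean lay between those of DUX4 and DUXC in all these rows, so no ratio here measures DUXC over luciferase. These intervals and limits cover counting error only.

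The largest differences in favour of DUX4 included rows with far more reads. Gene row 2663 stood at 980.7, 1043 and 975.7 CPM in the DUX4 libraries and at 20.7, 19.9 and 21.1 CPM in the DUXC libraries. DUXC was 48.4-fold below DUX4 there. Both factors were nevertheless above luciferase, at 0.223 CPM, and DUXC-ALT, at 0.237 CPM. Gene row 2992 had the same shape, at 365.6, 408.5 and 403.5 CPM with DUX4 and 14.3, 12.6 and 12.7 CPM with DUXC, with luciferase at 0.197 CPM. The log2 difference there was -4.89 ± 0.05 (SE), with an edgeR adjusted p of 1.34e-49. Gene row 5451 stood at 44.6, 46.2 and 43.9 CPM with DUX4 and at 2.05, 1.30 and 1.98 CPM with DUXC, a log2 difference of -4.66 ± 0.10 (SE). Its luciferase mean was 0.301 CPM, so that DUXC lay between luciferase and DUX4.

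In other rows DUXC was near or below the luciferase level while DUX4 was above it. Gene row 211 stood at 144.6, 150.9 and 148.7 CPM with DUX4 and at 1.08, 1.13 and 1.32 CPM with DUXC, with all luciferase libraries between them at 2.46, 2.15 and 2.62 CPM. DUXC minus DUX4 was -6.97 ± 0.08 in log2 units (SE), with an edgeR adjusted p of 2.06e-60, the largest difference in this direction among the rows named by rule. Gene row 9381 stood at 32.6, 34.8 and 33.6 CPM with DUX4, 1.35, 1.62 and 1.08 CPM with DUXC and 2.30, 2.73 and 2.82 CPM with luciferase. The row before it, gene row 9380, showed the same order at a lower level, with 98, 136 and 116 reads with DUX4 and 6, 6 and 3 with DUXC. Gene rows 9454 and 2043 were at 11.9 ± 0.725 and 9.18 ± 1.20 CPM with DUX4 (SD, n = 3) and at 0.350 and 0.314 CPM with DUXC. Gene row 8595 had 57 DUX4 reads to 1 DUXC read, a ratio of 61.6 (10.6 to 2476). Gene row 15470 had 31, 35 and 46 reads with DUX4 and 2, 1 and 1 with DUXC.

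**Figure D2:**
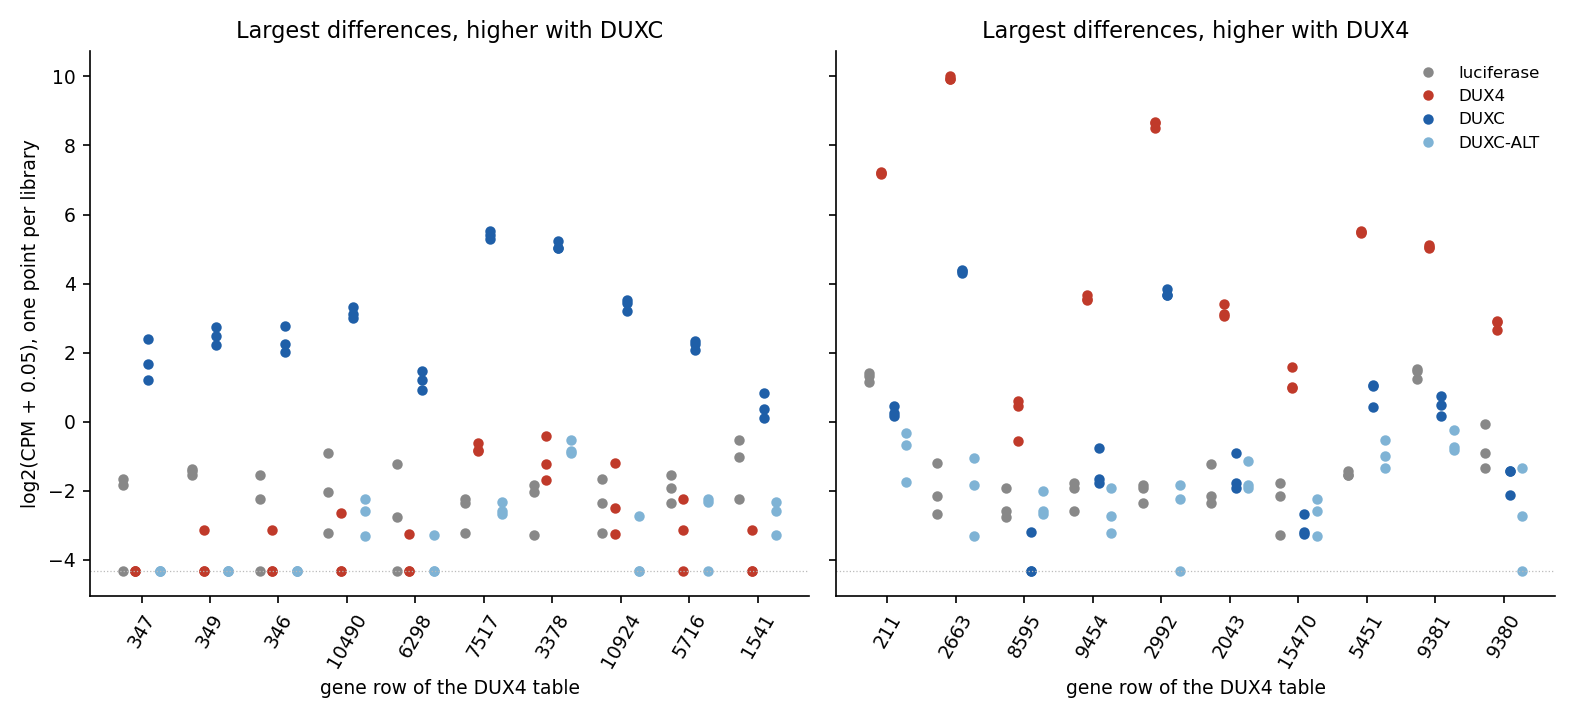
The 10 gene rows with the largest log2 difference in each direction, as log2(CPM + 0.05), with 1 point per library coloured by group. The dotted line marks 0 reads. In the left panel the DUXC points stand apart above all other groups, and in the right panel the DUX4 points do, while DUXC also stands clearly above luciferase in rows 2663, 2992 and 5451.

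The rows with the largest difference in level, rather than in ratio, were mostly abundant in the control myoblast as well and differed by less than 3-fold, with 1 exception. Gene row 8874 stood at 11092, 10865 and 10859 CPM with DUX4 and at 19096, 18930 and 18900 CPM with DUXC. The log2 difference was 0.80 ± 0.02 (SE), with an edgeR adjusted p of 4.09e-43. Its luciferase mean was 28062 CPM, so both factors lay below luciferase and DUX4 lay further below. Gene rows 10521 and 1326 had that order too. Row 10521 had means of 13316 CPM with luciferase, 8532 with DUXC and 4612 with DUX4. Row 1326 had 11826, 9974 and 6448 CPM in that order of groups. Gene row 8602 differed from these, since DUXC at 4563 ± 108.3 CPM lay above both DUX4 at 2129 ± 43.8 and luciferase at 2591 ± 269.2 CPM (SD, n = 3).

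Among abundant rows higher with DUX4, gene row 430 was the exception in size. It stood at 2642, 2685 and 2703 CPM with DUX4 and at 484.4, 462.5 and 484.5 CPM with DUXC, 5.58-fold apart, on either side of its luciferase mean of 1566 CPM. DUXC-ALT was lower still at 140.5 ± 4.52 CPM (SD, n = 3). Gene row 9149 stood at 16941 ± 99.6 CPM with DUX4 and 13082 ± 220.4 with DUXC (SD, n = 3), and both were below the 19255 CPM of luciferase. Gene row 12878 stood at 18738 ± 303.6 CPM with DUX4 and 15604 ± 411.3 with DUXC (SD, n = 3), and both were above the 11559 CPM of luciferase. Gene row 11195 was at 9114 CPM (DUX4) and 6362 CPM (DUXC), on either side of 7126 CPM with luciferase. Of the 100 most abundant rows of each factor, 86 were shared. Taken library by library, the 100 most abundant rows held 27.2% ± 0.0833 of gene counts with DUX4 (SD, n = 3). The share was 27.8% ± 0.0885 with DUXC (SD, n = 3), a ratio of 1.02. All DUXC libraries were above all DUX4 libraries, at the smallest p that 3 against 3 libraries allow (two-sided exact permutation p = 0.1, adjusted p = 0.1 over 6 such measures).

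Rows were next grouped by their level in the control myoblast. Of 2598 joined rows with a mean under 1 CPM in luciferase only 1232 had enough reads to test, and a row could enter through the factor in which it was high, so the share in this band is no measure of all its rows. Among these 1232 tested rows 48.2% differed by more than 2-fold and passed the test, 288 higher with DUXC and 306 with DUX4. The share was 17.3% of 3395 rows at 1 to 10 CPM, 5.27% of 6903 rows at 10 to 100 CPM and 2.45% of 1794 rows at 100 CPM and over, against 11.9% of all rows tested. The median SE of a log2 difference fell along the same bands, from 0.32 through 0.15 and 0.06 to 0.03. Its part in the shares was not tested.

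Rows were also ordered by the mean log2 change of both factors over luciferase, a quantity that does not use the difference between them. Of 205 rows with a mean change of 3 or more, that is 8-fold or more, 69.3% differed by more than 2-fold between the factors, 61 higher with DUXC and 81 with DUX4. Their median log2 difference was -0.40, and the quartiles were -1.95 and 1.24. A row could enter this band mainly through either factor, so the share is no measure of rows raised by both. Most rows in the band stood more than 2-fold apart. Among 1536 rows with a mean change of 1 to 3, 40.0% differed by that much, and among 11209 rows between -1 and 1 the share was 6.67%. Of 374 tested rows with a mean change under -1, 22.2% did, 57 higher with DUXC and 26 with DUX4.

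**Figure D3:**
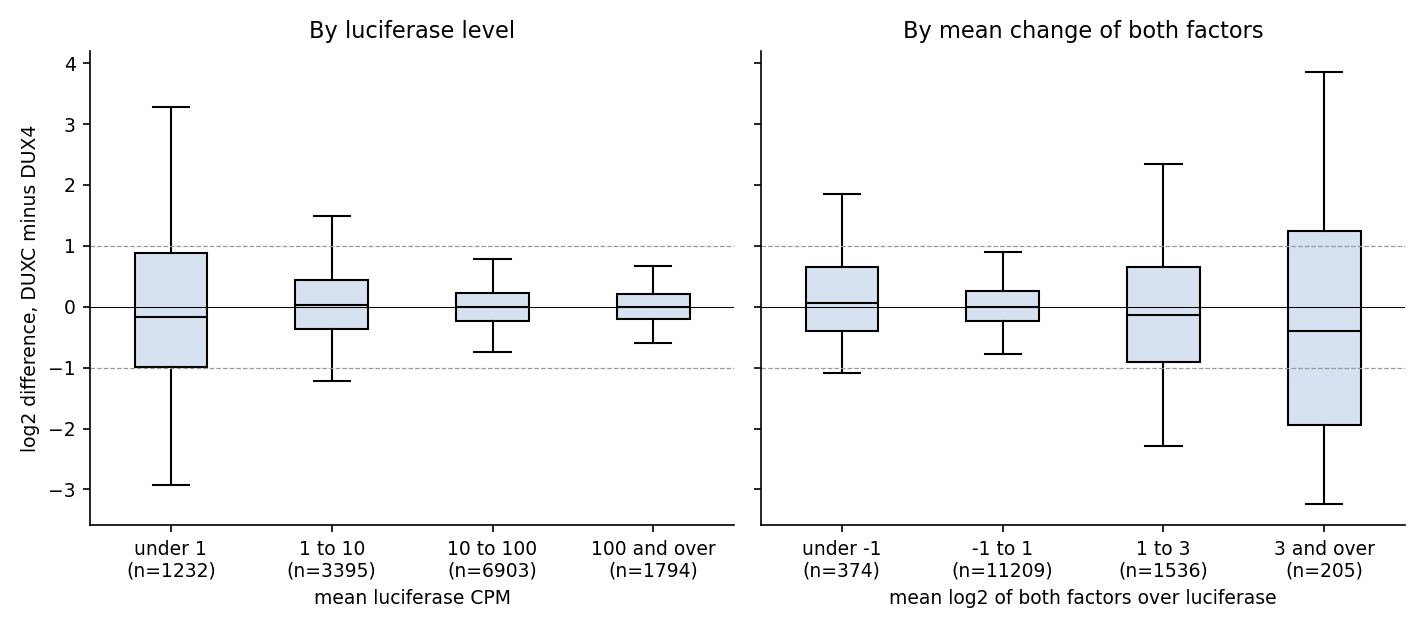
Log2 difference between the factors, DUXC minus DUX4, for tested gene rows grouped by mean luciferase CPM (left) and by the mean log2 of both factors over luciferase (right). Boxes run from the lower to the upper quartile with the median as a line, whiskers reach the 5th and 95th percentiles, and dashed lines mark 2-fold. The boxes are widest for rows under 1 CPM in luciferase and for rows raised 8-fold or more on average.

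For rows with a large difference, the luciferase mean was placed below, between or above the means of both factors. This order alone does not show that both factors raised a row. Of the 851 rows more than 2-fold higher with DUXC, luciferase lay below both factors in 392 (46.1%), between them in 364 (42.8%) and above both in 95 (11.2%). Of the 737 rows higher with DUX4, the counts were 452 (61.3%), 234 (31.8%) and 51 (6.92%). No test of that difference in place was made. The factor with the lower level was within 1.5-fold of luciferase in 342 of the 851 rows and in 288 of the 737.

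Summed over the 205 joined rows raised 8-fold or more on average, by both factors or mainly by either, DUX4 gave the larger output. These rows came to 30367, 31063 and 30368 CPM in the DUX4 libraries and to 21650, 21569 and 21601 CPM in the DUXC libraries, against means of 776.3 CPM with luciferase and 1023 CPM with DUXC-ALT. The groups did not overlap, and DUXC stood at 0.706 of DUX4 (two-sided exact permutation p = 0.1, the smallest possible; adjusted p = 0.1). DUX4 was higher in 120 of the rows, by 16686 CPM in all, and DUXC in 85, by 7693 CPM in all. DUX4 gave the larger sum without the largest rows too. The ratio was 0.565 without the 8 rows that are among the 5 largest of either factor, a set chosen after the data were seen. Rows not joined, raised or not, are outside these sums. Their mean CPM summed to 3007 with DUX4 and 3365 with DUXC, the other order.

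The largest of the 205 joined rows ranked differently with each factor. Gene row 15429 was the largest with DUXC, at 5148, 5078 and 5084 CPM, and alone made up 23.6% of the DUXC sum. It stood at 1927, 1975 and 1910 CPM with DUX4, and at 13.7 CPM with luciferase. All DUXC libraries exceeded all DUX4 libraries, by 1.40 ± 0.02 in log2 units (SE), with an edgeR adjusted p of 1.93e-53. Gene row 4725 was the largest with DUX4, at 2680, 2632 and 2638 CPM, and stood at 1024, 1037 and 1020 CPM with DUXC. Gene rows 2647, 13347 and 2521 came after rows 4725 and 15429 with DUX4, at means of 1791, 1776 and 1770 CPM, and had 643.7, 511.2 and 681.2 CPM with DUXC. All 3 were under 1 CPM with luciferase and with DUXC-ALT. Gene rows 8480 and 7744 went the other way, at 858.0 ± 23.1 and 727.7 ± 16.8 CPM with DUXC and 93.3 ± 2.53 and 93.0 ± 4.76 CPM with DUX4 (SD, n = 3). Of the 20 largest rows of each factor 12 were shared, and of the 50 largest 33.

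Some strongly raised rows reached almost the same level with both factors. Among 145 rows raised 8-fold or more on average with at least 10 CPM, 54 were higher with DUXC, 86 were higher with DUX4 and 5 did not pass the test, beside 33.1% and 33% of all tested rows called in each direction. A row could enter this set mainly through either factor, too. The 95% interval lay within 1.5-fold for 25 of the 145. Gene row 13917 stood at 177.7, 187.3 and 178.9 CPM with DUX4 and at 178.4, 181.4 and 177.2 CPM with DUXC, with overlapping libraries. The difference of -0.01 ± 0.03 in log2 units (SE) had a 95% interval of -0.08 to 0.05 and an edgeR adjusted p of 0.738, and the luciferase mean was 6.71 CPM. Gene row 5814 stood at 30.9, 32.4 and 32.1 CPM with DUX4 and 27.4, 31.2 and 32.6 CPM with DUXC, also overlapping. It differed by -0.07 ± 0.06 in log2 units (SE), with an edgeR adjusted p of 0.355, and had 0.204 CPM with luciferase. Gene rows 427, 12668 and 3062 differed by -0.07, -0.09 and 0.10 on the log2 scale and passed the test, though rows 427 and 12668 lost the call without single libraries. Without DUXC replicate 1 their adjusted p was 0.0965 and 0.0960.

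Rows scarce in luciferase, which could not be joined, held part of the difference. There were 2334 such rows for DUX4 and 2339 for DUXC, with 0.301% ± 0.00118 and 0.337% ± 0.00215 of gene counts (SD, n = 3). All DUXC libraries were above all DUX4 libraries, at a ratio of 1.12 (two-sided exact permutation p = 0.1, the smallest possible). Each table leaves out rows with fewer than 7 reads over its 6 libraries, so a row found in 1 table and absent from the other at its place had at most 6 reads with the other factor. By that reckoning 697 rows were listed for DUX4 only and 705 for DUXC only, which still allows up to 6 reads with the other factor. Most were near the limit of detection, with a median of 9 and 10 reads. At 1 CPM or more in all 3 libraries there were 18 with DUX4 and 43 with DUXC, and with at least 50 reads 21 and 64.

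The most abundant of these rows were well above that limit with 1 factor. Row 11303 of the DUXC table had 664, 634 and 529 reads with DUXC, or 33.9 ± 2.04 CPM (SD, n = 3), and 0 in each luciferase library. It had at most 6 reads over all DUX4 libraries, which makes it at least 281.7-fold higher with DUXC. Row 5381 of the DUXC table had 205, 223 and 199 reads, at least 145-fold more than the 4 that the DUX4 group could hold. Row 8440 of the DUXC table had 253, 267 and 209 reads, at least 112.4-fold higher. On the DUX4 side, row 16831 had 232, 240 and 238 reads, or 14.3 ± 1.14 CPM (SD, n = 3), with 1 read in each luciferase library. At most 3 reads remained for the DUXC group, so it was at least 255.8-fold higher with DUX4. Row 326 had 126, 128 and 83 reads and row 7015 had 62, 56 and 62, at least 60.7-fold and 32.4-fold higher with DUX4.

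**Figure D4:**
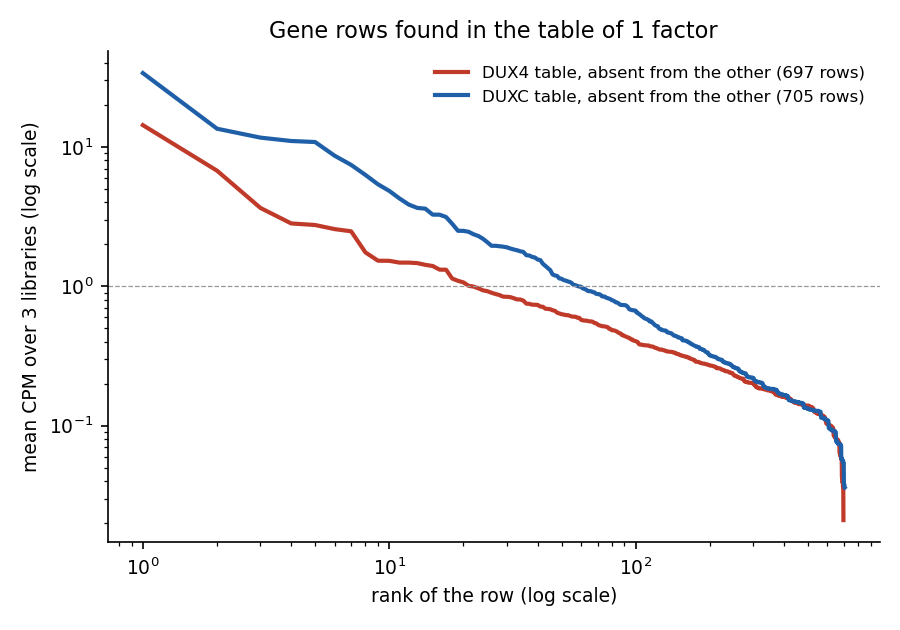
Gene rows present in the table of 1 factor and absent from the other, ranked by mean CPM over 3 libraries, both axes on a log scale. The DUXC curve starts at 33.9 CPM and the DUX4 curve at 14.3 CPM, and the dashed line marks 1 CPM.

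Repeat rows, which count reads of repeat elements, favoured DUX4 as a whole. Repeat counts per 100 gene counts were 6.81, 6.69 and 7.33 in the DUX4 libraries and 5.62, 5.80 and 4.91 in the DUXC libraries, with means of 3.49 ± 0.0447 in luciferase and 3.19 ± 0.358 in DUXC-ALT (SD, n = 3). The groups did not overlap, and DUXC stood at 0.784 of DUX4 (two-sided exact permutation p = 0.1, the smallest possible; adjusted p = 0.1). A single row, repeat row 335, held 2.25 ± 0.310 of these counts with DUX4 and 1.81 ± 0.399 with DUXC (SD, n = 3) and varied between replicates. It stood at 20291, 21144 and 26040 CPM with DUX4 and at 20362, 20454 and 13494 CPM with DUXC, so that its groups overlapped and it did not pass the test (edgeR adjusted p = 0.282). Without it the values were 4.79, 4.57 and 4.73 with DUX4 and 3.58, 3.76 and 3.56 with DUXC, a ratio of 0.774. Luciferase then stood at 1.94 and DUXC-ALT at 1.97.

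Row by row, with libraries scaled on gene counts, 336 of 619 tested repeat rows (54.3%) were higher with DUX4 and 46 (7.43%) higher with DUXC (edgeR adjusted p under 0.05). The median log2 difference was -0.30 and the quartiles were -0.56 and -0.06. Scaled on the repeat counts themselves, which takes the shared shift out, 148 rows were higher with DUX4 and 163 with DUXC, so the share of calls higher with DUXC went from 12% to 52.4%. The direction of a moderate repeat difference is therefore relative to genes. On the gene scale 48 rows were more than 2-fold higher with DUX4 and 12 with DUXC, and on the repeat scale 23 and 19. Luciferase lay below both factors in all 48 and in all 12 of the former. The lower factor was within 1.5-fold of luciferase in 10 of the 48 and in 3 of the 12, reckoned as for gene rows. Of 46 rows at 100 CPM or more in luciferase, 40 were higher with DUX4 and 0 with DUXC. The count of 0 held at an unadjusted p under 0.05 in edgeR and with DESeq2, whereas on the repeat scale 18 of the 46 were higher with DUX4 and 14 with DUXC. Of 176 joined repeat rows under 1 CPM in luciferase, 142 had enough reads to test, and a row could enter through the factor in which it was high. Among the 142 tested rows, 55 were higher with DUX4 and 15 with DUXC.

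The repeat rows with the largest differences were low with DUXC. Repeat row 139 stood at 40.2, 42.5 and 41.8 CPM with DUX4 and at 1.19, 1.19 and 1.08 CPM with DUXC, -5.16 ± 0.12 in log2 units (SE; edgeR adjusted p = 5.78e-54). Repeat row 97 stood at 121.0, 105.8 and 116.0 CPM with DUX4 and at 5.28, 5.29 and 3.72 CPM with DUXC, with luciferase at 0.936 CPM. Repeat row 648 stood at 115.9, 112.0 and 115.8 CPM with DUX4 and at 9.04, 7.61 and 10.3 CPM with DUXC, with luciferase at 3.55 CPM. In all 3 the DUX4 libraries lay far above every DUXC library. Repeat rows 147 and 29 had 32.1 ± 1.85 and 6.91 ± 1.13 CPM with DUX4 and 1.39 ± 0.483 and 0.332 ± 0.0795 CPM with DUXC (SD, n = 3). Repeat rows 77, 143 and 697 were 8.79-fold, 7.40-fold and 7.19-fold higher with DUX4. No DUXC-higher row reached that size on the gene scale.

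Repeat rows higher with DUXC were scarce and less far apart. Repeat row 707 had 27, 23 and 17 reads with DUXC and 6, 4 and 3 with DUX4, 2.23 ± 0.40 in log2 units (SE; edgeR adjusted p = 1.04e-06). Repeat row 715 stood at 9.10, 9.94 and 9.71 CPM with DUXC and at 3.35, 3.65 and 3.28 CPM with DUX4, with luciferase at 2.32 CPM. Repeat row 359 stood at 17.4, 17.2 and 18.7 CPM with DUXC and at 7.13, 7.74 and 6.56 CPM with DUX4, both above 1.12 CPM with luciferase. Libraries of the 2 factors did not overlap in any of these rows, as the rule for naming rows required. Repeat rows 504, 451, 543, 124 and 154 were 2.92-fold, 2.39-fold, 2.21-fold, 2.15-fold and 2.03-fold higher with DUXC.

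The 5 most abundant repeat rows, row 335 among them, all differed by less than 2-fold. Repeat row 655 stood at 2378, 2049 and 2330 CPM with DUX4 and at 1464, 1242 and 1472 CPM with DUXC, which gave -0.69 ± 0.06 in log2 units (SE; edgeR adjusted p = 4.19e-08). Repeat row 324 differed by -0.37 ± 0.05 (SE). Scaled on repeats, row 655 stood at -0.36 and row 324 at -0.05, and neither passed the test (edgeR adjusted p = 0.0791 and 0.292). Repeat row 660 stood at 1649, 1804 and 1836 CPM with DUX4 and at 1706, 1932 and 1533 CPM with DUXC, with overlapping groups and -0.03 ± 0.08 in log2 units (SE; edgeR adjusted p = 0.786). Repeat row 234 stood at 3455, 3244 and 3287 CPM with DUX4 and 2911, 3103 and 2997 CPM with DUXC, at -0.14 ± 0.04 (SE; edgeR adjusted p = 0.00371). On the repeat scale rows 234 and 660 were higher with DUXC, at 0.18 and 0.29. Of the rows not joined, 18 repeat rows were listed for DUX4 only and 10 for DUXC only. Repeat row 7 led them with 34, 41 and 41 reads with DUX4 and at most 5 with DUXC.

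**Figure D5:**
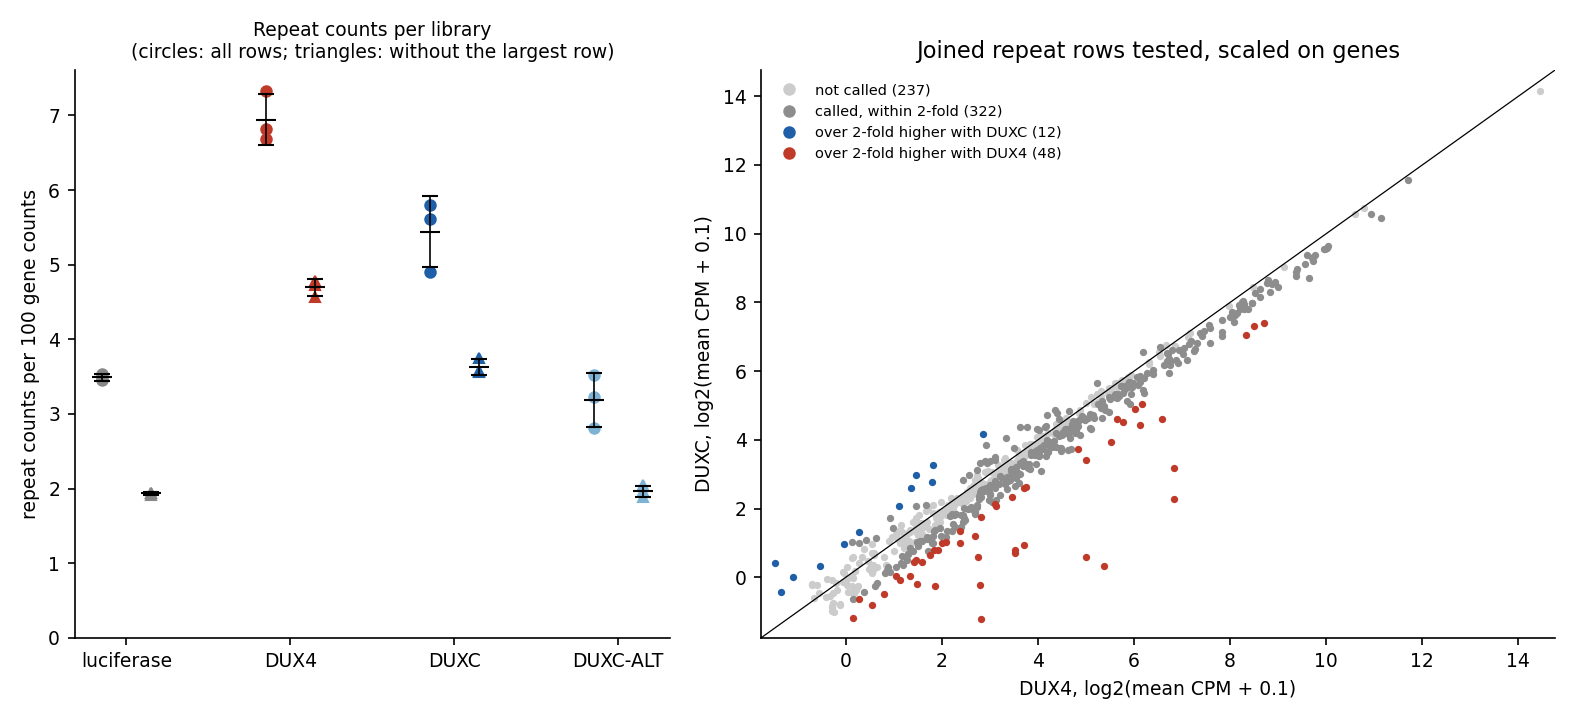
Left, repeat counts per 100 gene counts in each library of the 4 groups, with all rows (circles) and without repeat row 335 (triangles), where bars show mean ± SD of 3 libraries. Right, mean CPM of each tested repeat row with DUX4 and DUXC as log2(mean CPM + 0.1), scaled on gene counts. DUX4 libraries are the highest in both measures, and most rows lie below the line of equal levels.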

How the data were processed

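Libraries were prepared with the TruSeq RNA v2 kit, per the labels' protocols. Tables of whole-number read counts per gene row and per repeat row were deposited by the authors, each with the 3 luciferase libraries and the 3 of 1 factor. Per the submitters' processing notes, TopHat2 2.1.0 and Bowtie2 2.2.6, the canFam3 build, DESeq2 and CASAVA were used, with no role stated. How reads were counted, by strand or with several matches, is not given in the sources used here, so overlapping or near-identical rows may share reads. The normalized tables were not used.

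From these counts, joined rows were fitted in edgeR 4.0.16 (R 4.3.3) on the 6 libraries after filterByExpr and TMM, using the quasi-likelihood test with robust dispersion and a Benjamini-Hochberg threshold of 0.05. The script was tested on simulated data. A row past the threshold is called. Library sizes were whole-table gene totals, for repeats too. TMM factors lay between 0.997 and 1.004. CPM were computed on gene totals. Repeat totals were 1079263, 1226444 and 1140977 with DUX4 and 1043511, 1074349 and 818926 with DUXC. Measures with 1 value per library had a two-sided exact permutation test.

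Named gene rows are called rows at 1 CPM or more with no overlap: the 10 with the largest log2 difference and the 5 with the largest CPM difference in each direction. The 5 most equal rows raised 8-fold on average by both at 10 CPM or more, the 8 largest repeat differences each way at 20 counts or more, and the 5 most abundant repeat rows were added. Other rows were picked by their place in a sum or ranking after their values were seen. Members, bands and lists were chosen with earlier results of these data known. Lists of marker and target genes could not be used without row names. Replicate numbers were not used to pair libraries in the main fit. Alternatives comprised other scalings, filters and tools, the replicate number as a block, a fit of all 12 libraries and leaving out each library.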

Additional observations from a re-analysis of the deposited data

How the results depend on the processing

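Scaling repeats on their own counts (TMM on repeats) changed the repeat results most, to 163 rows higher with DUXC and 148 with DUX4, with 19 and 23 more than 2-fold apart, and the median log2 difference went from -0.30 to 0.02. Repeat rows 234 and 660 reversed there, to 0.18 and 0.29. The near-even split of gene rows went to 4340 higher with DUXC and 4477 with DUX4 with library totals. It went to 3738 and 5245 (median -0.07) with all 12 libraries in the fit, which changes samples, filter, spread and scaling together. DESeq2 called 3912 and 3756 gene rows and 40 and 301 repeat rows. Leaving out single libraries gave 4107 to 4334 and 4113 to 4293 gene rows, and 39 to 45 and 303 to 357 repeat rows.

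The share of gene counts in rows under 1 CPM in luciferase, joined or not, was 1.64% with DUX4 and 1.10% with DUXC. The ratio was 0.669, and 0.841 or 0.732 with a limit of 0.5 or 2 CPM. For the 50 or 500 most abundant rows the ratio was 1.04 or 1.00. Without the 5 largest rows of either factor, chosen after seeing the data, the raised rows gave 0.565. With a prior count of 0.5, 2 repeat rows fell under a mean change of -1, against 1. Of 713 values of 56 named rows under the alternatives, 700 kept their direction and their side of the threshold, 10 lost the call and 1 gained it. Most of these rows were named for a large called difference without overlap, so the tally does not speak for other rows. The causes of these changes were not tested.

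With the replicate number as a block (replicate block), 4405 and 4403 gene rows and 44 and 325 repeat rows were called. Same-numbered libraries had deviations from their group means that correlated at -0.015, 0.020 and 0.006 over gene rows. Over repeat rows the values were 0.074, -0.041 and -0.174. Whether same-numbered libraries share more than a number is not in the labels and cannot be told from these values. Depth limited rows under 1 CPM in luciferase, where 1232 of 2598 could be tested.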

Other observations

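Some rows with large differences stand next to each other in the tables, which were noticed after their values were seen. Gene rows 346, 347 and 349 are all among the 10 largest differences in favour of DUXC, at 5.17, 3.55 and 5.60 CPM with DUXC and at most 1 read with DUX4. Row 348, between them, differed less, at 103.0 against 142.0 CPM (DUX4 against DUXC), and row 350 stood at 73.2 against 159.1 CPM. Gene rows 9380, 9381 and 9382 were all higher with DUX4, with log2 differences of -4.61, -4.62 and -1.25. Gene rows 430 and 431 shared an order of groups in which DUX4 was above luciferase and DUXC and DUXC-ALT below it. Row 431 had 135.7 CPM with DUX4 and 80.5 with luciferase, but 25.2 with DUXC and 7.42 with DUXC-ALT. The basis of the row order is not given in the sources used here. Over all 12191 pairs of adjacent joined rows the log2 difference correlated at r = 0.03, and rows 100 apart at 0.01, as a description across rows of the same libraries.

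The 2598 joined rows under 1 CPM in luciferase were summed with all rows not joined, whether or not a factor changed them. Together they held 1.63%, 1.67% and 1.63% of gene counts in the DUX4 libraries and 1.10% in each DUXC library. The means were 0.113% with luciferase and 0.105% with DUXC-ALT. DUX4 libraries were all above DUXC libraries (two-sided exact permutation p = 0.1, the smallest possible for 3 against 3). Repeat row 335 held much of the spread between replicates in repeat counts. DUXC replicate 3 differed from DUXC replicates 1 and 2 by a chi-square per degree of freedom of 28.2 and 26.5 with it, and of 1.67 and 5.20 without it.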
